A study of Gossypium hirsutum with 15 samples.

Results

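Cotton fibers are single cells that grow out from the outer layer of the seed coat, first lengthening and then laying down a thick secondary wall made almost wholly of cellulose. In the immature fiber mutant (im) of Upland cotton, Gossypium hirsutum, that wall stays thin and the mature lint lies matted on the seed. Genes whose transcripts differ between im and its wild type throughout the change from lengthening to wall thickening are a class apart from genes that differ at a single stage, because their difference is present before, during and after the wall begins to thicken. The values below describe the probes whose transcript was lower in im and higher in the wild type TM-1 at each of the 5 stages measured, with the lines named as the source names of the samples give them.

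Of 12092 cDNA probes measured at every stage, 31 belong to this group. The array holds 29184 cDNA probes in all, each a clone from ovules and fibers of an Upland cultivar. RNA labelled as fiber came from field-grown plants of the im mutant and of Gossypium hirsutum L. acc. TM-1, its near-isogenic wild type, at 13, 16, 19, 22 and 25 days post-anthesis (DPA), with no other treatment. The design text of the series speaks instead of ovules with their fibers attached, and a lower transcript level per cell cannot be told apart from fewer fiber cells in the RNA. Each of the 15 arrays, 3 per stage, held both lines in Cy5 and Cy3, with the dyes interchanged on replicate 2. The methods state that each stage had 3 biological pools of plants, and for the arrays they describe a pair of biological replicates and a dye swap. Replicate 2 may therefore share its RNA with another replicate, and the spread given below may be partly technical.

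The members were chosen by their measured ratios. The ratio is log2(TM-1/im), so that a positive value means a lower level in im. A spot with both dyes under 400 intensity units was left out, a probe needed 2 measured arrays at each stage, and a member needed a mean ratio of 0.4 or higher at all 5 stages. Every ratio given for the members is therefore a description of the values that selected them, and no test is attached to it. The tables available name no gene for a spot, so the members carry their spot names, no gene list or check of tissue markers could be made, and no sequence is shown.

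The direction of the ratio is not settled by the labels. The source names put im in Cy5 on replicates 1 and 3 and TM-1 in Cy5 on replicate 2. The material labels turn this round at 16 and 22 DPA, the methods place TM-1 in Cy5 outside the dye swap, and the dye labels put im in Cy5 on all 15 arrays. Across the 12092 probes, the unturned Cy5/Cy3 ratio of replicate 2 had correlations of -0.80 to -0.38 with replicates 1 and 3 of the same stage, which places replicate 2 in the opposite dye orientation at every stage without saying which line it carried in Cy5. Under the methods' assignment im and TM-1 change places in every value below, and the members are then higher in im.

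A difference of one direction at all stages was rare but was held by more probes than any alternation of directions. A stage mean of 0.4 or higher throughout was found for 31 probes, and one of -0.4 or lower throughout, higher in im, for 103. The 30 patterns with both signs held 0 to 16 probes each, 112 in all. The pattern that the material labels would read as lower in im throughout, with 16 and 22 DPA turned, held 1 probe.

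**Figure D1:**
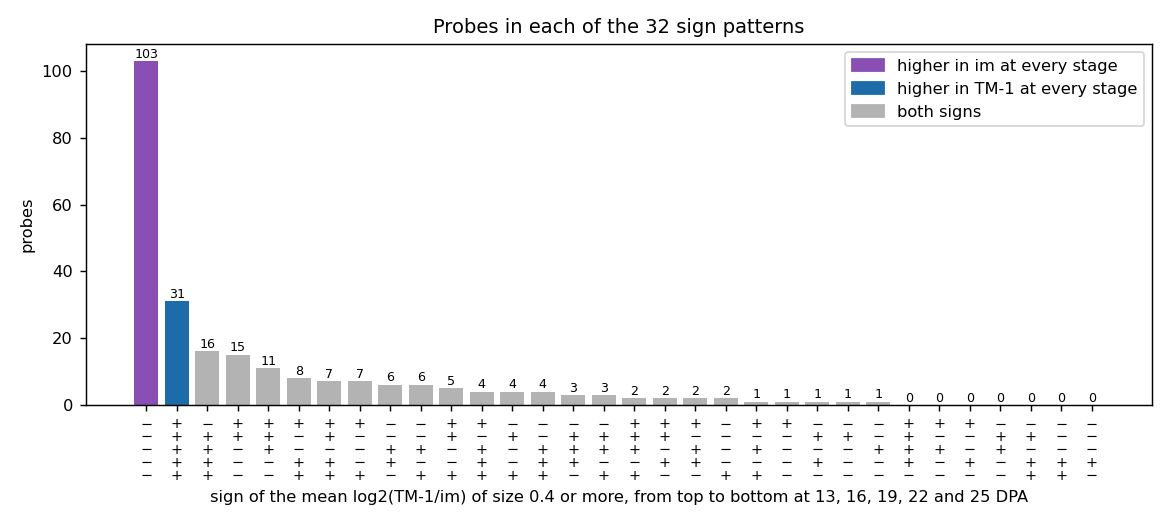
Number of probes (vertical axis) in each of the 32 combinations of signs that the mean log2(TM-1/im) can take over the 5 stages, where every mean has a size of 0.4 or more. The combination with im higher throughout holds 103 probes and that with TM-1 higher throughout holds 31, while no combination of both signs exceeds 16.

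The 31 members fell into 2 sets once the dye orientation was read. In 24 members the ratio was also positive on replicate 2, where the dyes were interchanged. In the remaining 7 the mean ratio of replicate 2 was negative, between -3.51 and -0.80, while that of replicates 1 and 3 lay between 1.297 and 4.94. In these 7 the Cy3 signal exceeded the Cy5 signal in 99 of 104 measured readings, whichever line the Cy3 dye carried, and the 5 others came from replicates 1 and 2 of 19 DPA. Their stage means average 2 arrays of one orientation with 1 of the other. With each orientation counted equally, their means over the stages were 0.12 to 0.71. Of their 34 stage means weighted in this way 25 were above 0 and 11 at 0.4 or more, and none of the 7 reached 0.4 at every stage. Their negative ratios on replicate 2 go against the description as lower in im.

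**Figure D2:**
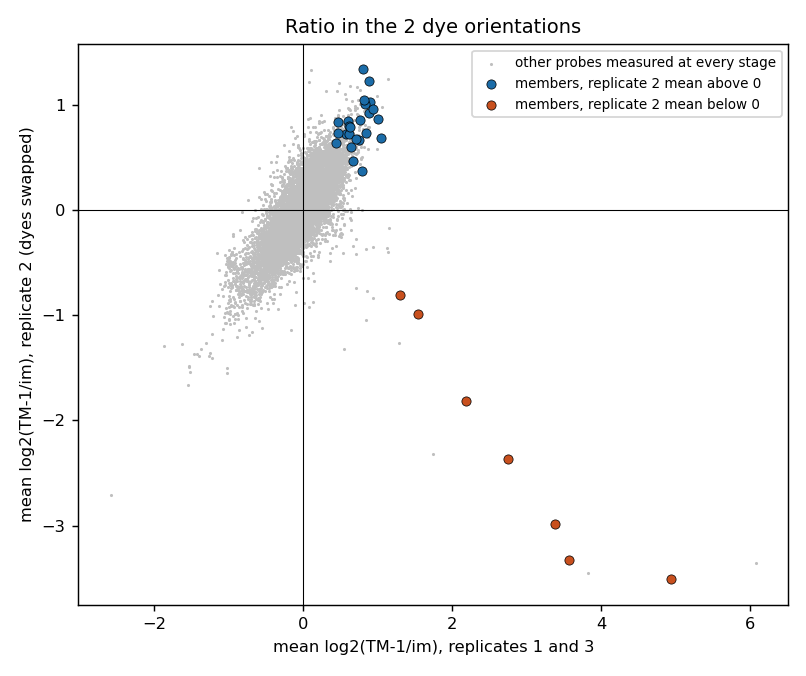
Mean log2(TM-1/im) of each probe on replicate 2 (vertical axis) against its mean on replicates 1 and 3 (horizontal axis), over the 5 stages. The 24 members shown in blue are positive on both axes, and the 7 in orange have replicate 2 means of -3.51 to -0.80 and means of 1.297 to 4.94 on the other replicates. Grey points are the other probes measured at every stage.

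The 2 members with the highest lowest-stage ratio, which also count among those with the highest mean ratio, belong to the 7. Spot 384P08_D_08 gave ratios of 5.33, -3.16 and 7.03 on replicates 1, 2 and 3 of 13 DPA, 4.65, -3.45 and 3.92 on those of 16 DPA, and 0.77, -0.36 and 6.63 on those of 19 DPA. At 22 DPA it gave 5.96, -4.77 and 5.44, and at 25 DPA 4.86, -5.81 and 4.77. Replicate 2 was the lowest array of every stage, below 0 throughout. The stage means of 1.27 to 3.07 carried SDs of 3.75 to 6.13 (n = 3), larger than the means themselves. Its Cy3 signal was 469.0 to 1383 units, with a median of 751.0, and its Cy5 signal 3.5 to 497.0 units, with a median of 20.0, under 400 units on 13 of 15 arrays.

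Spot 384P06_L_10 had the same form. At 13 DPA the 3 replicates gave 3.72, -3.90 and 4.197, at 16 DPA 4.26, -3.46 and 3.64, and at 19 DPA 0.78, -1.61 and 4.32. At 22 DPA they gave 4.03, -3.66 and 3.26, and at 25 DPA 4.15, -4.03 and 3.27. The sign of replicate 2 was again the opposite of the others at every stage. Its Cy3 signal ran at 451.0 to 2129 units and its Cy5 signal at 56 to 358.0 units, under 400 units on all 15 arrays. Both spots therefore passed the intensity limit through Cy3 alone on most arrays, and their ratios rest on a Cy5 signal under that limit.

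The other 5 members of the set were not all faint. Cy5 was under 400 units on 10 or more arrays in 2 of the 7. Spot 384P26_E_19, which was chosen for mention after its values were seen, read 2058.5 to 11971.5 units in Cy5 and 7299 to 64650 units in Cy3, with 5 saturated readings. By signal, Cy3 exceeded Cy5 on every measured array in 3 of the 7 members. By the deposited log2 ratio it did so in 5 of the 7 and on 14 of 15 arrays in the other 2, and among all 12092 probes measured at every stage 0.0992% had Cy3 above Cy5 on every measured array by that ratio.

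**Figure D3:**
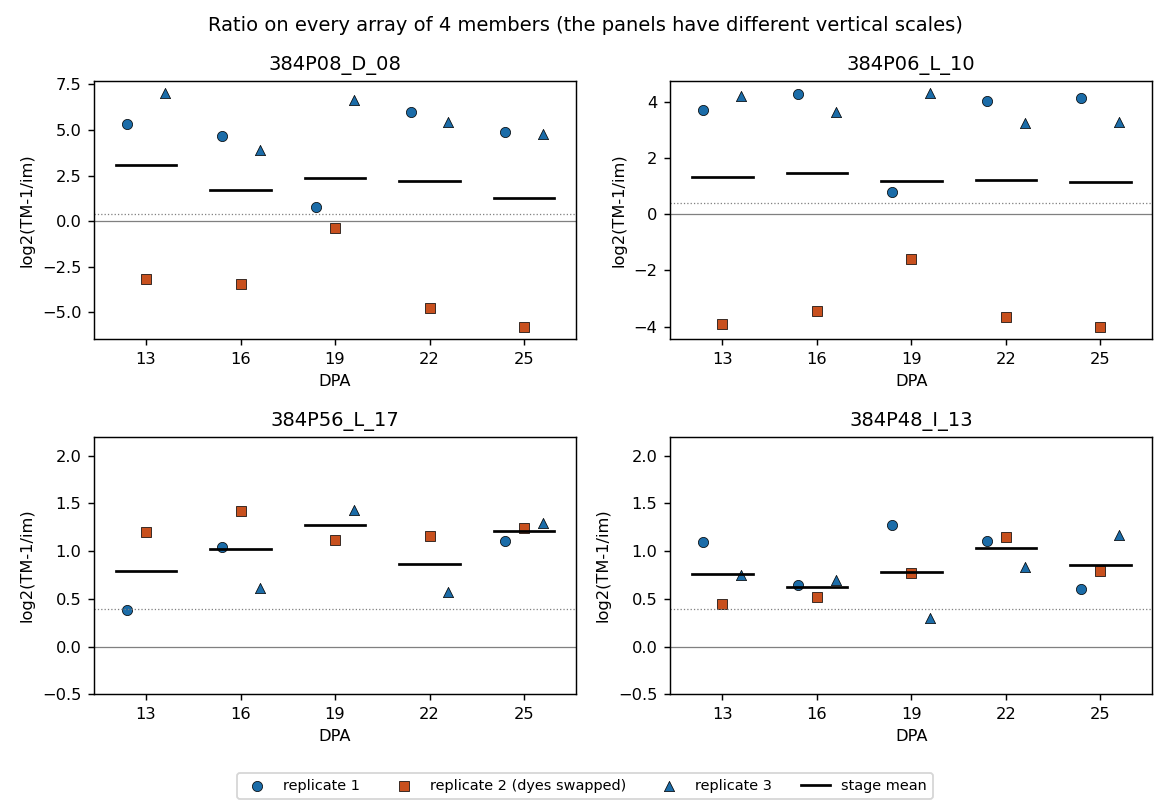
Log2(TM-1/im) on every array (vertical axis) by stage in DPA (horizontal axis) for 4 members, with the stage mean as a bar and dotted lines at 0.4. The upper 2 spots are positive on replicates 1 and 3 and negative on replicate 2, and the lower 2 are positive on every measured array.

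The mean ratio of replicates 1 and 3 minus that of replicate 2, divided by 2, measures how far a ratio follows the dye. It was 1.05 to 4.22 in the 7 members. The value was 1 or more in 11 of the 12092 probes, so that 7 of those 11 are members, and it was -1 or lower in none. In the other 24 members it lay between -0.27 and 0.21, with the lowest in 384P39_G_04 and 384P45_F_01 (-0.27 and -0.18), beside a median of -0.02 over all 12092 probes. No probe among the 103 that were higher in im at every stage had a positive mean on replicate 2, so none of them followed the dye in this way.

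At 19 DPA the 7 members stood closer to 0 on 2 of the 3 arrays. The median size of their ratio was 0.70 on replicate 1 and 0.36 on replicate 2, against 3.14 on replicate 3 and 2.84 over the 13 arrays other than these 2. These 2 arrays had the highest Cy3 background, with medians of 972.0 and 797.0 units, while the remaining arrays had 253.5 to 519.0 units. Its part in the smaller ratios was not tested.

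With the 3 arrays of a stage weighted so that each dye orientation counted equally, which needs all 3 to be measured, 18 probes reached a mean of 0.4 at every stage, 17 of them members, and none of the 7 was among them. The 24 members that kept their sign on replicate 2 are described on their own from here on.

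In these 24 the median ratio lay above the limit for membership at every stage, as the choice of members required. That limit was the same at all 5 stages, so nothing is read from the size of the median or its evenness. This median ratio over the 24 was 0.67 at 13 DPA, 0.67 at 16 DPA, 0.69 at 19 DPA, 0.71 at 22 DPA and 0.64 at 25 DPA. The ratio was above 0 in 346 of their 351 measured values and on every measured array in 19 of the 24 members, whereas 1.07% of the 12092 probes were above 0 on every measured array. On replicate 2 alone, 23 of the 24 were above 0 at all 5 stages, against 9.97% of all probes. Both shares come from the values that chose the members, and nothing is read from them.

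At any 1 stage a change of 2-fold or more was the exception. The members reaching it differed between stages, so more of the 24 reached it at some stage than at any 1 stage. A mean ratio of 1 or more was reached by 2 of the 24 members at 13 DPA, by 8 at 16 DPA, by 5 at 19 DPA, by 7 at 22 DPA and by 4 at 25 DPA. Over all 12092 probes the shares were 0.852%, 4.42%, 2.08%, 1.19% and 1.70% at these stages. None of the 24 was 2-fold lower in im at every stage. The replicate spread was of the order of the limit for membership at 1 stage and below it at the others, with a median SD of 0.21, 0.22, 0.18, 0.17 and 0.37 from 13 to 25 DPA.

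Spots 384P56_L_17 and 384P48_I_13 had the highest lowest-stage ratio of the 24, and were singled out after the 2 sets had been seen. Spot 384P56_L_17 read 0.38 and 1.20 on the 2 arrays that measured it at 13 DPA, and 1.04, 1.42 and 0.61 at 16 DPA. At 19 DPA it read 1.12 and 1.43, at 22 DPA 1.16 and 0.58, and at 25 DPA 1.11, 1.24 and 1.295. All 12 measured values were positive, and the 3 arrays of 25 DPA lay closest together, with a mean of 1.22 ± 0.09 (SD, n = 3). This was a faint spot, with 136.0 to 897.0 units in im and a median of 480.0, against 263.5 to 1971 units in TM-1 and a median of 786.0, and im was under 400 units on 6 of 15 arrays.

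Spot 384P48_I_13 was measured on all 15 arrays. At 13 DPA it gave ratios of 1.09, 0.44 and 0.75, at 16 DPA 0.65, 0.52 and 0.69, and at 19 DPA 1.27, 0.77 and 0.30. At 22 DPA it gave 1.10, 1.15 and 0.84, and at 25 DPA 0.60, 0.80 and 1.16. The stage means, 0.62 to 1.03, differed from each other by about as much as the arrays within a stage. Its signal was 425.0 to 6386 units in im, with a median of 1773, against 675.5 to 12025 units in TM-1, with a median of 3173, and im was the dimmer line on each of the 15 arrays.

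The members differed in how the ratio ran over the stages. The highest stage mean fell at 13 DPA in 2 of the 24, at 16 DPA in 6, at 19 DPA in 4, at 22 DPA in 5 and at 25 DPA in 7. The range between a member's lowest and highest stage mean was 0.17 to 1.27, with a median of 0.58. The group thus shares a sign, which the choice of members fixed, and not a time course.

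Spot 384P31_K_06 had the widest range of the 24. It gave ratios of 1.02, 1.11 and 0.83 on the 3 arrays of 13 DPA, and 1.88, 1.92 and 1.41 on those of 16 DPA. At 19 DPA it gave 0.41, 0.25 and 0.73, then 0.70, 0.69 and 0.92 on the arrays of 22 DPA, and 1.12, 0.83 and 0.34 on those of 25 DPA. The 3 arrays of 16 DPA lay above all 12 others, with a mean of 1.74 ± 0.28, against 0.46 ± 0.24 at 19 DPA (SD, n = 3 each). The spot read 1969 to 6857 units in im, with a median of 3776, and 3926 to 13176 units in TM-1, with a median of 6698.

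The 2 narrowest ranges belonged to 384P08_N_15 and 384P29_L_24. The stage means of 384P08_N_15 were 0.50 ± 0.10, 0.60 ± 0.23, 0.42 ± 0.04, 0.42 ± 0.16 and 0.60 ± 0.30 (SD, n = 3 each) from 13 to 25 DPA, so that neighbouring stages overlapped. Those of 384P29_L_24 were 0.61 ± 0.06, 0.52 ± 0.14, 0.76 ± 0.17, 0.68 ± 0.25 and 0.57 ± 0.06, with the same overlap. Both spots were well measured on all 15 arrays, with medians of 5150 and 6601 units in im, against 7162 and 8011 units in TM-1.

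**Figure D4:**
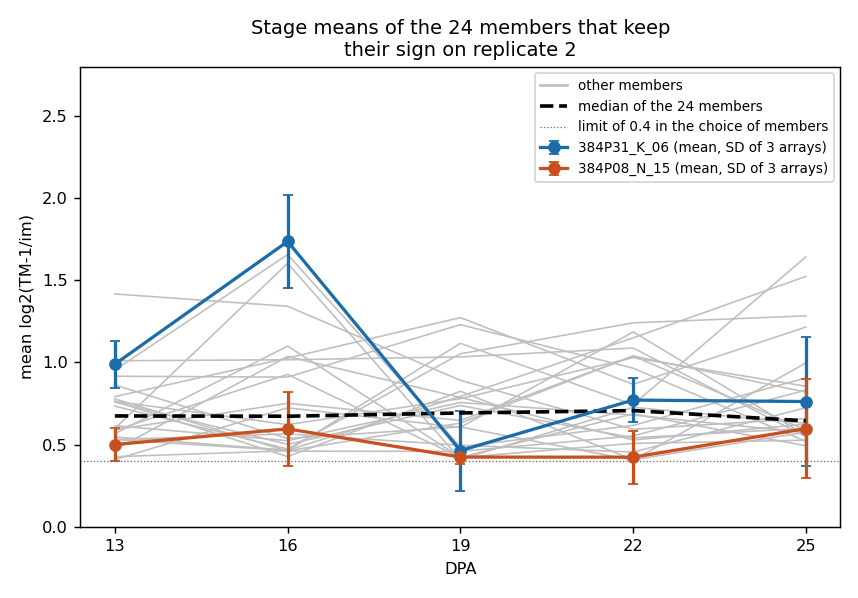
Mean log2(TM-1/im) at each stage in DPA for the 24 members that keep their sign on replicate 2, with the SD of 3 arrays for the members of widest range (384P31_K_06) and narrowest range (384P08_N_15). The dashed median lies between 0.64 and 0.71, and nothing is read from its evenness, since the same limit for membership applied at every stage. Spot 384P31_K_06 reaches 1.74 at 16 DPA and 0.46 at 19 DPA.

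Some members ran closely together over the arrays. The pair most alike was 384P31_K_06 and 384P63_M_15, named after their values were seen, whose ratios correlated at 0.93 over 15 arrays with a median absolute difference of 0.09. Both peaked at 16 DPA. The 15 points share arrays and stages, both spots were chosen by the same ratios, and whether the 2 clones come from one gene is not known here, so the value is a description.

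The limit of 0.4 ran through a dense range of probes. Just inside it, 384P44_P_14 had a lowest stage mean of 0.405 and 384P45_F_01 of 0.408, both at 22 DPA. Just outside it, 384P36_F_02 reached 0.396 at 22 DPA and 384P59_F_23 reached 0.394 at 19 DPA. The replicate 2 means of these 4 spots were 0.80, 0.83, 0.55 and 0.78, all positive. At a limit of 0.3 the group would hold 62 probes, and at 0.5 it would hold 14.

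Probes were also chosen on 2 replicates by the same limit and read on the remaining replicate, which had no part in that choice. Of 17 probes chosen on replicates 2 and 3, which have opposite dyes, and measured at every stage on replicate 1, 16 were above 0 at all 5 stages there, beside 7.12% of all probes so measured. Of 16 chosen on replicates 1 and 2, also of opposite dyes, 10 were above 0 at all stages on replicate 3, beside 8.69% of all probes. Of 23 chosen on replicates 1 and 3, which share their dye orientation, 11 were above 0 at all stages on replicate 2, beside 9.93% of all probes, and their median ratio there was 0.16. The medians were 0.69 on replicate 1 and 0.64 on replicate 3. The shares of all probes come from probes not chosen by ratio, and replicates of a stage correlated at 0.38 to 0.82 once turned. A higher share among the chosen probes was therefore built in. The replicates may share RNA, as said above, and these counts are descriptions with no test. The sets were chosen anew and held only some of the members. Of the 20, 24 and 16 probes chosen without replicate 1, 2 and 3, 17, 15 and 12 were members. Nothing about the members is read from these counts.

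The members did not come from a single part of the array. They lay on 26 of the 76 clone plates, with 2 on each of 5 plates and no plate with more, and in 21 of the 48 printed blocks, with at most 3 in a block. The 7 dye-following members lay on 7 plates and in 7 blocks.

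The change of the mean level of both lines between stages did not enter the ratio that chose the members and does not depend on which line a dye carried. The level did enter through the intensity limit, since a probe under 400 units in both dyes on 2 arrays of any stage could not be a member, and the median over the 12092 probes that met this limit at every stage is given for that reason. It was compared between stages with limma on the normalized log2 mean of the 2 channels, called at a Benjamini-Hochberg adjusted p under 0.05 and a change of at least 2-fold. Between 25 and 13 DPA, 5 of the 31 members rose and 1 fell, and all 6 belonged to the 24. The risers numbered 2 without replicate 1, 3 without replicate 2, 3 without replicate 3 and 3 with a replicate block. Over all 14551 probes tested, 7.53% rose and 13.6% fell. Over the 12092 measured at every stage the shares were 7.94% and 15.03%. The 5 risers include 384P31_K_06 and 384P63_M_15, the pair most alike above, so they may not stand for separate genes. The median change was 0.39 over the members, against -0.19 over all probes tested and -0.23 over the 12092 measured at every stage. It was 0.57 over the 24 and 0.13 over the dye-following members. Of the 31, 28 had a positive change, most of them short of the test. The share with a positive change was not counted over all probes, so nothing is read from the 28.

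The largest called rise was that of 384P76_E_22. Its normalized log2 level in im was 12.39, 12.63 and 11.48 at 25 DPA, against 9.17, 10.98 and 10.47 at 13 DPA. In TM-1 it was 13.58, 13.30 and 12.38 at 25 DPA, against 10.59, 11.59 and 11.28 at 13 DPA. Every array of 25 DPA lay above every array of 13 DPA in both lines. The change in the mean level was 1.95 ± 0.43 on the log2 scale (SE; limma adjusted p = 0.00342). Without replicate 1 the adjusted p was 0.0898, and the call held in 13 of 14 alternatives.

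Spot 384P73_N_16 rose by 1.38 ± 0.47 on the log2 scale (SE; limma adjusted p = 0.0392). Its level in im was 10.619, 9.207 and 11.003 at 25 DPA, against 9.68, 9.24 and 8.59 at 13 DPA, and the 2 stages overlapped. In TM-1 it was 11.995, 10.052 and 12.638 at 25 DPA, against 10.26, 10.12 and 9.33 at 13 DPA, again with overlap. The call held in 8 of 14 alternatives, and without replicate 3 the adjusted p was 0.396.

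Spot 384P45_F_01 was the only member called lower at 25 than at 13 DPA. Its level in im was 8.741, 7.998 and 8.590 at 25 DPA, against 9.20, 10.65 and 9.57 at 13 DPA. In TM-1 it was 9.03, 9.28 and 8.54 at 25 DPA, against 10.08, 11.32 and 10.30 at 13 DPA. The 2 stages did not overlap in either line, and the mean level fell by 1.49 ± 0.36 on the log2 scale (SE; limma adjusted p = 0.00655). The adjusted p was 0.110 without replicate 2, and the call held in 11 of 13 alternatives. This spot was faint at 25 DPA. It read 377.0, 238.5 and 374.0 units in im, all under 400 units, against 533.5, 613.5 and 410.5 units in TM-1.

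**Figure D5:**
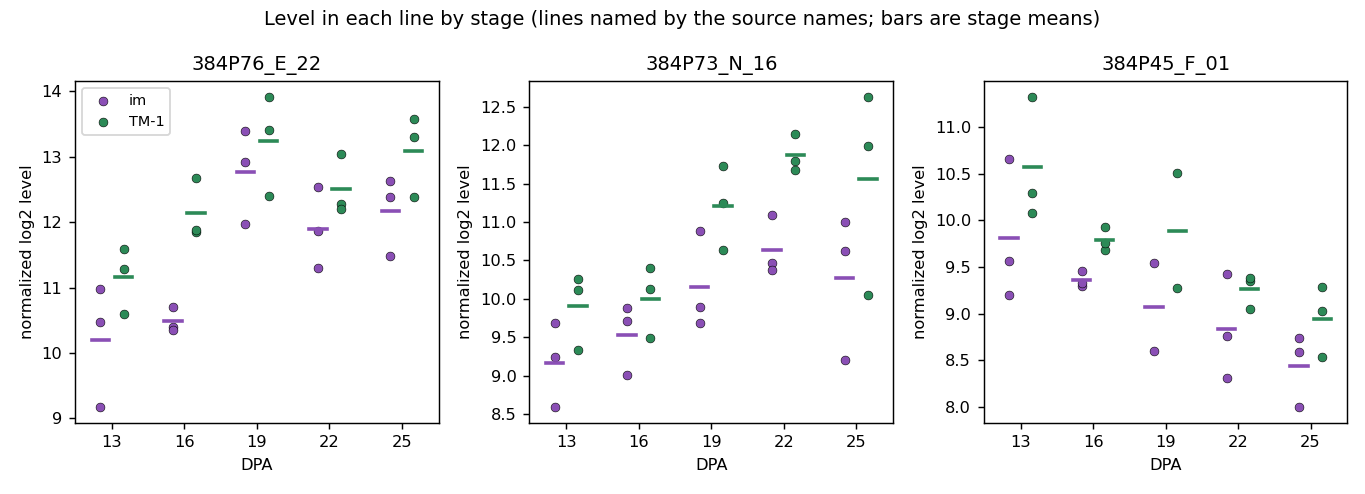
Normalized log2 level of 3 members on each array in im and TM-1 (vertical axis) by stage in DPA, with bars at the stage means and lines named by the source names. At 25 DPA 384P76_E_22 lies above and 384P45_F_01 below all their values of 13 DPA in both lines, and 384P73_N_16 overlaps between these stages.

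Between adjacent stages few members passed the test. Between 22 and 19 DPA, 5 of 31 members rose and none fell, against 5.31% and 4.15% of 13118 probes, and 14 of the 31 had an unadjusted p under 0.05, against 25.9% of those probes. Without replicate 1 or without replicate 2 none of these 5 rises was called. Over all probes 1241 were called, but 138 without replicate 1, 154 without replicate 2 and 1567 without replicate 3. Replicates 1 and 2 of 19 DPA are the arrays with the highest Cy3 background, and both comparisons with 19 DPA use them. Leaving out a replicate drops it at every stage, so the part of these 2 arrays was not tested. Between 19 and 16 DPA, 1 member rose and 1 fell, against 4.21% and 6.44% of 13789 probes. The riser was 384P76_E_22, by 1.69 ± 0.43 on the log2 scale (SE; limma adjusted p = 0.0176), and its call held in 11 of 14 alternatives, with an adjusted p of 0.180 without replicate 1. The faller was one of the 7 dye-following members, the same one that rose between 22 and 19 DPA. Its fall was not called without replicate 1, without replicate 2, or under 7 other settings.

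Between 16 and 13 DPA no member was called by limma, with 2 at an unadjusted p under 0.05, against 9.52% of 16216 probes. Of these probes 0.179% rose and 0.148% fell. Between 25 and 22 DPA none was called either, with 2 at an unadjusted p under 0.05, against 10.3% of 14291 probes, of which 0.0420% rose and 0.266% fell. Adjacent stages share arrays, so these comparisons are not independent of each other. With 3 arrays per stage, their number sets the precision.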

How the data were processed

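The authors scanned 15 dual-dye arrays and deposited, for each, the intensity of 30000 spots and of their local background in both dyes, with 29184 cDNA probes among them. They also deposited a table of log2 Cy5/Cy3 values, not turned for the dye swap, centred near 0 (column medians -0.014 to 0.018). The methods name LOWESS within arrays and Aquantile across arrays, and the sources used here do not tie either step to the deposited table. Its columns correlated with the intensity ratios at 0.959 to 0.996. R 2.12.2 and limma 3.4.5 stand in the submitters' processing notes. Between 13761 and 19272 probes per array had a dye at 400 units or more.

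Ratios were taken from the table, times -1 on replicates 1 and 3. Levels were computed with limma 3.58.1 in R 4.3.3: background-subtracted medians were raised to at least 50 units, then loess and Aquantile followed, and all 15 arrays entered one fit with a coefficient per stage. Probes needed 2 arrays at both stages, and the fit was tested on simulated data. The members, the tests and the lists were chosen with earlier results of these data known. Spots were named by extremes of lowest-stage ratio, mean ratio, distance to the limit, range, dye difference and level change, at most 2 per direction, and exceptions are stated. Naming by highest level was dropped, because levels of different probes are not comparable. Gene lists could not be applied.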

Additional observations from a re-analysis of the deposited data

How the results depend on the processing

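The number of members depended on the label source and on the limit. Read by the material labels, 1 probe met the rule, and by the methods' assignment 103 did. A limit of 0.3 gave 62 probes, 0.5 gave 14 and 1 gave 2, and the dye-balanced mean gave 18. Leaving out 1 replicate gave 16 to 24, with 20 without replicate 1 and 16 without replicate 3. The ratio from the intensities, the other intensity limits, the flags, the median and the need for all 3 arrays kept the number within 1.5 times of 31. The members themselves changed more. Of the 31, 28 were kept with the ratio from intensities, 27 at 200 units, 23 at 800 units and 21 with both dyes. The flags kept 28, the need for all 3 arrays 24 and the median 21. Leaving out replicate 1, 2 or 3 kept 17, 15 and 12.

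Of the named spots, those following the dye changed sign. For 384P08_D_08 at 25 DPA the mean ratio was -0.265 with loess and Aquantile, -0.499 dye-balanced, and -0.521 to 4.81 with 1 replicate left out. For 384P06_L_10 the dye-balanced mean was -0.007 at 22 DPA and -0.159 at 25 DPA. With 1 replicate left out, its range at 13 DPA was -0.089 to 3.96, at 19 DPA -0.416 to 2.55, at 22 DPA -0.201 to 3.64 and at 25 DPA -0.378 to 3.71. The dye-balanced and left-out means differ in the weight of replicate 2, which was negative at every stage in both spots, while replicates 1 and 3 were positive. Why the ratios followed the dye, and why loess and Aquantile changed a sign, was not tested. Over the 24 other members, loess and Aquantile kept all 120 stage means above 0 and 118 at 0.4 or more. Of the 120, 113 were at 0.4 or more without replicate 1 (lowest 0.272), 104 without replicate 2 (lowest 0.203) and 109 without replicate 3, where 1 was below 0 (-0.016).

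The level test moved more. Between 25 and 13 DPA the risers among the members numbered 5, but 3 with both dyes at 400 units or more, 3 in im channels alone, 3 with the replicate block and 2 to 3 with 1 replicate left out. The 1 faller was not called with no filter on faint spots (0) or without replicate 2 (0 to 1 over the replicates), and with both dyes at 400 units or more (0) it was not tested. Between 22 and 19 DPA the 5 risers became 2 without Aquantile, 3 with normexp, 9 with both dyes, 8 with no filter, 3 in im channels alone and 0 to 3 with 1 replicate left out. Fallers there numbered 1 without Aquantile, 1 with the replicate block, 1 with the files lacking negative flags as a block, 1 with trend and robust eBayes, and 0 to 2 over the replicates. Between 19 and 16 DPA the 1 riser became 0 in TM-1 channels alone, 2 in im channels alone and 0 to 3 over the replicates. The 1 faller became 2 without Aquantile, 2 with both dyes, 2 with no fold minimum, 0 with normexp, no filter, either line alone, the replicate block, the flag block or trend, and 0 to 2 over the replicates. Between 16 and 13 DPA, TM-1 channels alone gave 1 riser.

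Residuals of equally numbered arrays correlated at -0.18 to 0.19, with a median of 0.03. Those of arrays differing in number and stage correlated at -0.17 to 0.17, with a median of -0.02. The main fit took the arrays as unpaired, although replicate 2 is the dye swap at every stage. With the replicate block the probes called over the whole array between 25 and 22 DPA numbered 11, against 44 without it. Over all probes, the calls between 16 and 13 DPA were 53 and became 138 without Aquantile, 34 with both dyes, 304 in TM-1 channels alone, 30 without flagged spots and 9 to 21 with 1 replicate left out. Between 19 and 16 DPA 1468 became 959 with both dyes and 3749 with no filter. They numbered 150 without replicate 1, 301 without replicate 2 and 1937 without replicate 3. Between 22 and 19 DPA 1241 became 5459 with no filter. They numbered 138 without replicate 1, 154 without replicate 2 and 1567 without replicate 3. Between 25 and 22 DPA 44 became 13 without Aquantile, 80 with normexp, 24 with both dyes, 23 with no filter, 230 in im channels alone and 0 to 1 over the replicates. Between 25 and 13 DPA 3081 became 1380 to 2781 over the replicates.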
